A study of Drosophila melanogaster with 2 samples.

Results

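The 10 genes described here regulate the cell cycle of Drosophila melanogaster: the cyclins CycA, CycB and CycE, the kinases Cdk1, Cdk2 and polo, the phosphatase gene stg, the inhibitor gene dap, and E2f1 with its partner Dp. They were chosen by name, for their known function, and are 10 of 13945 protein-coding genes on the 6 main chromosome arms. The study located Spalt major (Salm), a zinc-finger transcription factor of the embryonic head, tail, trachea and oenocytes, by chromatin immunoprecipitation and sequencing (ChIP-seq). The embryos carried salm with GFP fused to its C-terminal end, and per the label descriptions an anti-GFP antibody pulled the protein down, although another label field names the antibody as salm. There were 2 biological replicates and 1 group, of whole embryos aged 0 to 16 h, so every value averages over tissues and stages. The promoter that drives the transgene is not given in the sources used here. Untagged embryos were not analysed here, and peak lists hold no expression with which to check the tissue label.

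In the cell cycle of the fly, CycE bound to Cdk2 drives entry into DNA replication, and CycA and CycB bound to Cdk1 drive entry into mitosis. The E2f1 and Dp proteins form a dimer that switches on genes needed for replication. After the rapid nuclear divisions of the early embryo, the supply of the String phosphatase (stg) sets when cells divide, and dap stops the cycle when cells begin to differentiate.

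Each gene's window began 2 kb before its start, ran to its end, and supplied the peak summits counted for it. The deposited thresholded list, filtered for reproducible rank between replicates, held 3421 peaks. The list called on both replicates pooled, and the list of each replicate, held a fixed 30000 peaks, so the length of these lists is not a measure of binding. The signal of a peak is the strength given by the peak caller, and its scale differs between lists. It ran from 31.3 to 2154 in the pooled list, and the thresholded peaks were the 3421 strongest of these, from 141 up, with a median of 206. Rank 1 is the strongest peak of a list. Read totals were not given, so depth per sample is unknown.

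Thresholded summits lay in the windows of CycE, E2f1, Dp and Cdk1, and in none of CycA, CycB, Cdk2, stg, dap and polo. These 4 of 10 genes (40%, exact 95% binomial interval 12.2 to 73.8, counting error only) stood beside 21.4% of all protein-coding genes. The windows differed in length, from 3.52 kb at Cdk1 to 42.6 kb at E2f1, and long windows hold summits more often. Both genes with windows of 20 kb or more, CycE and E2f1, had one, as did 48.3% of all genes in that class. Of the 6 genes with windows of 5 to 20 kb, 1 (Dp) had one, against 29.4% of all such genes. Of the 2 genes with windows under 5 kb, 1 (Cdk1) had one, against 13.9%. With so few genes in each class, no share is read as differing from its background.

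**Figure D1:**
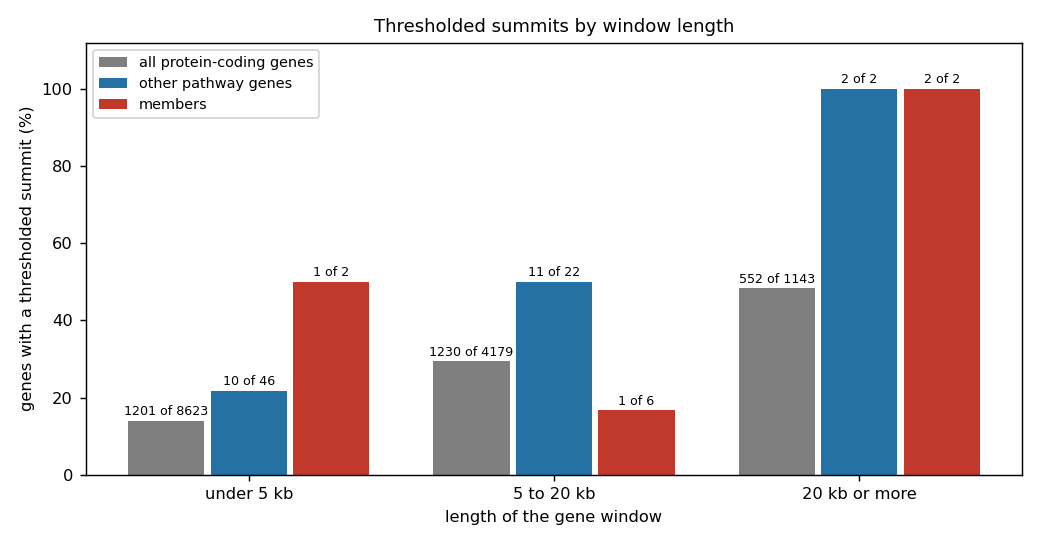
Percentage of genes with a thresholded summit (vertical axis) by length of the gene window (horizontal axis), for all protein-coding genes, 70 other genes of the cell cycle and the 10 genes, with counts above the bars. The share over all genes goes from 13.9% to 48.3% with window length, and the bars of the 10 genes rest on 2, 6 and 2 genes.

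The 4 windows held 7 thresholded summits. Of these, 4 lay nearest to a transcription start site (TSS) of the gene itself and 3 nearest to that of a neighbour. Within 500 bp of an own TSS there were 3, of which 2 also lay within 500 bp of another gene's TSS, 2 lay there at another gene's TSS only, and 2 at neither. Counted over genes, 2 of 10 (Cdk1 and Dp) had a thresholded summit within 500 bp of an own TSS, against 13.5% of all genes. An own TSS was the nearest to some thresholded summit for 4 of 10 genes (CycE, E2f1, Dp and, through a summit beyond its window, CycB), against 14.5% of all genes.

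Among the genes of replication entry, CycE, the cyclin that activates Cdk2, held the strongest thresholded peak of the 7 by signal. Its signal was 349 in the pooled list, at rank 664. In replicate 1 the signal was 219 at rank 654, and in replicate 2 it was 130 at rank 704, so both replicates placed it among their stronger peaks. The peak spans chr2L:15746927-15747316 (dm6), and its summit at 15747122 lies in an intron of CycE. It sits between promoters of the gene, 512 bp upstream of the start of a shorter transcript and 1028 bp downstream of the gene's first TSS. The next TSS of another gene, that of lncRNA:CR44974, was 865 bp from the summit. No other protein-coding gene's window took in this summit. The other pooled summits of CycE were weak, with signals of 63.7 (rank 12388) and 40.4 (rank 22481). The sequence at the strong summit was AT-rich: in the 101 bp centred on it GC content was 16.8%, a value reached or undercut by 66 of the 3421 thresholded summits (1.93%), whose median was 32.7% (quartiles 26.7 to 39.6). These bases held AATAT, on either strand, 5 times, and 80 of the 3421 summits (2.34%) held it at least as often. The non-exonic stretch around the summit, chr2L:15747001-15747271 on the minus strand, the strand of CycE, is shown because it carries the strongest of the 7 peaks. The summit is base 150, and capitals mark every match of AATAT or of its reverse complement ATATT.
CycE intron: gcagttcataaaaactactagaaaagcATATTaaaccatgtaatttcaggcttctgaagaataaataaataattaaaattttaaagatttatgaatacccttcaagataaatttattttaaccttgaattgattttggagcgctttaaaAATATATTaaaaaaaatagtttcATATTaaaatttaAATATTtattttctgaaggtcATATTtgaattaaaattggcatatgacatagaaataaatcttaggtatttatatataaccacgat

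Cdk2, the kinase that CycE activates, held no summit in the thresholded, pooled or replicate 1 list (window 4.79 kb). Replicate 2 alone listed a peak 11 bp upstream of its TSS, with a signal of 20.7 at rank 18081, below the replicate's median of 23.3. That peak also lay 311 bp from the TSS of mir-995. The nearest thresholded summit lay 86.4 kb from the start of Cdk2, and 6.49% of all protein-coding genes had none closer. Thus a peak in both replicates was listed at the cyclin CycE and, at its partner kinase Cdk2, a weak peak in 1 replicate. Their windows also differed in length, 22.6 and 4.79 kb, in classes where 48.3% and 13.9% of all genes held a thresholded summit. Within 500 bp of an own TSS, CycE had no thresholded or pooled summit either. Replicate 1 alone listed a peak there, 15 bp downstream of the first TSS, with a signal of 46.5 at rank 10912. It also lay 134 bp from the TSS of asRNA:CR44866.

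E2f1, which encodes the activating E2F factor, held 2 thresholded summits, both with a signal below the list's median of 206. The first, at 21637079 in chr3R:21636884-21637273, had a signal of 151 at rank 3024. Replicate 1 gave it 111 at rank 2378 and replicate 2 gave it 41.8 at rank 5670. It lay in an intron, 1415 bp downstream of an alternative E2f1 TSS, and in no other gene's window. The second, at 21662617 in chr3R:21662422-21662811, had a signal of 183 at rank 2160, with rank 1837 in replicate 1 and 4021 in replicate 2. It lay 1746 bp upstream of E2f1 but inside an intron of the neighbour Archease, 355 bp downstream of that gene's TSS, and so is nearer to Archease than to E2f1. Neither was among the 3421 strongest peaks of replicate 2, where other E2f1 summits ranked higher. In replicate 2 the peaks of this window within the top 3421 lay 336 bp upstream of an alternative TSS (signal 65.2, rank 2510) and 3080 bp downstream of another (58.1, rank 3098). In replicate 1 there were 3 peaks above that rank: both thresholded ones and one 4735 bp downstream of an own TSS (95.4, rank 3193). Which of its peaks were strongest therefore differed between the replicates. The intronic E2f1 summit is shown as the one nearest to an own TSS, and as a contrast to CycE. It is chr3R:21636929-21637228, on the minus strand of E2f1, with the summit at base 150. At 38.7% GC it holds no AATAT, so no base is in capitals.
E2f1 intron: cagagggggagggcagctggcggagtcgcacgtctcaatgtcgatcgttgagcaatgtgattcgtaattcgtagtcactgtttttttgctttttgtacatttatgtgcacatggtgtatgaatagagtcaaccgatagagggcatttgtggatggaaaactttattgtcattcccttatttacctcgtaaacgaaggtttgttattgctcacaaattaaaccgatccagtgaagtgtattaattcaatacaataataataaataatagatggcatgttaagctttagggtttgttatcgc

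E2f1 stood out more by the number of weak summits than by strong ones. Its window held 40 pooled summits, with signals from 31.4 to 183 and a median of 52.8, against a median of 55.5 over the whole pooled list. This is 9.4 summits per 10 kb, where the 1143 genes with windows of 20 kb or more had a median of 2.21 (quartiles 0.447 to 4.58), and 10 of them (0.875%), E2f1 included, were at least as dense. The comparison of densities was not planned in advance. With overlapping peaks merged, a count chosen after the first was seen, 29 regions remained, or 6.81 per 10 kb, and 30 genes (2.62%) were at least as dense. In replicate 1 the density was 8.22, matched or passed by 32 genes (2.8%), and in replicate 2 it was 7.28, matched or passed by 48 genes (4.2%). By thresholded summits alone, 0.47 per 10 kb, 257 genes (22.5%) were at least as dense. Introns of E2f1 held 32 of the 40 summits, and 6 of the 40 lay within 500 bp of an own TSS. Peaks of both replicates overlapped 24 of the 40, replicate 1 alone 9, replicate 2 alone 6, and neither 1. The microRNA gene mir-11 and the TSSs of asRNA:CR46055 and lncRNA:CR46056 lie within E2f1, so a peak in the window need not belong to E2f1 itself. Pooled summits lay 33 bp from the TSS of asRNA:CR46055 and 158 bp from that of lncRNA:CR46056. Each of these was also within 500 bp of an own TSS, but other summits near such starts were not. A further summit lay 389 bp from the TSS of lncRNA:CR46056 and 547 bp from the nearest own TSS. Summits 247 and 44 bp from the TSS of another annotated entry inside E2f1, FBtr0304322_df_nrg, lay 11018 and 10815 bp from the nearest own TSS. CycE, with 1.33 pooled summits per 10 kb, was ordinary in the same class: 695 of the 1143 genes (60.8%) were at least as dense.

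**Figure D2:**
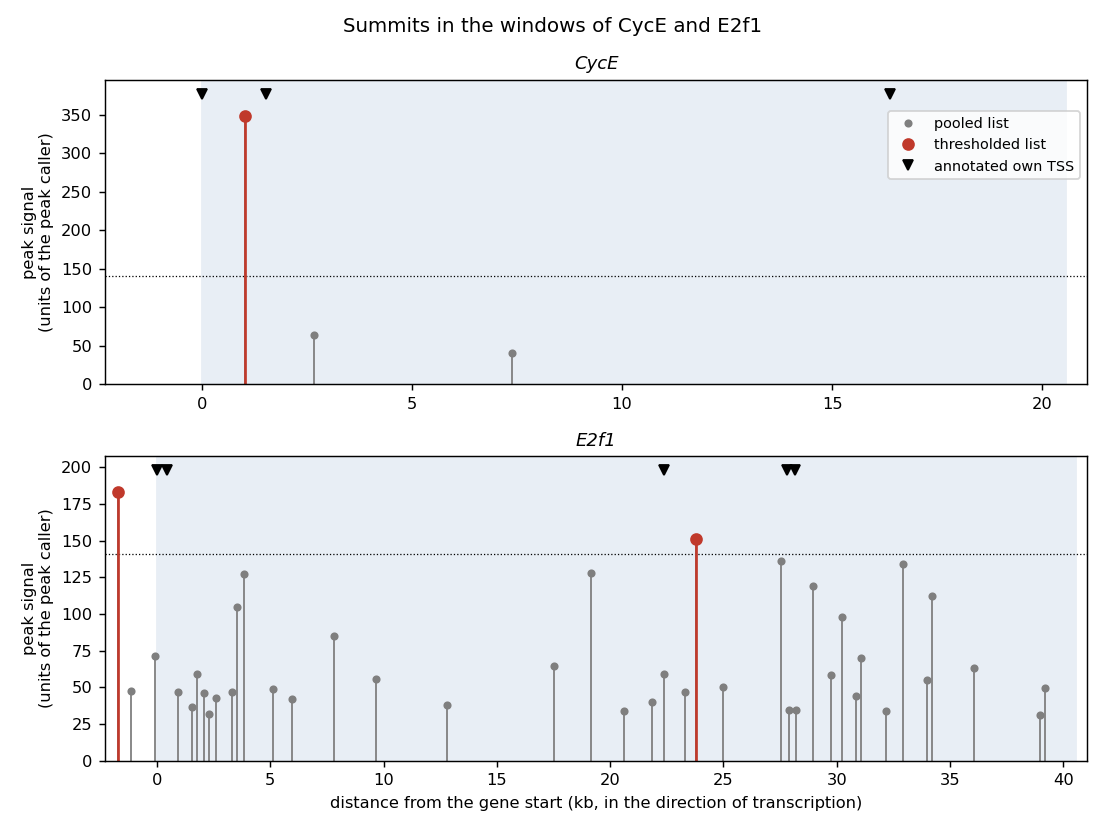
Signal of each pooled summit (vertical axis, units of the peak caller) against its distance from the gene start (horizontal axis, kb) for CycE and E2f1. Red points are in the thresholded list, shading is the gene, triangles are annotated TSSs and the dotted line is the lowest thresholded signal, 141. CycE has 1 tall summit of 349 and 2 short ones, and E2f1 has 40 summits between 31.4 and 183.

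Dp, which encodes the partner of E2f1, held 2 thresholded summits on arm 2R, both with a signal above the list's median of 206. The first, at 13223346, had a signal of 279 at rank 1004, with rank 1076 in replicate 1 and 887 in replicate 2. The second, 639 bp on at 13223985, had a signal of 336 at rank 711, with ranks 737 and 756. The 2 summits flank an alternative Dp TSS at 13223591, the first 245 bp upstream of it and the second 394 bp downstream, and each lay more than 500 bp inside the gene as recorded from its first TSS. Their peaks, 133 and 213 bp wide, were narrower than the 390 bp of the other 5. The second also lay 477 bp from the TSS of lncRNA:CR43918. At the gene's first start, shared with the divergent F-box gene Fsn, lay a weaker summit with a signal of 132 at rank 3898. It was 57 bp upstream of Dp and 38 bp upstream of the nearest Fsn TSS, in the 5′ UTR of Fsn. Its rank was 3016 in replicate 1 and 8291 in replicate 2. The windows of both Dp and Fsn include all 3 of these summits.

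The CycE-Cdk2 inhibitor gene dap, a relative of mammalian p21 and p27, held no thresholded summit but 6 pooled ones, on arm 2R. The strongest lay 48 bp downstream of its TSS, with a signal of 119 at rank 4720. Its rank was 4507 in replicate 1 and 8715 in replicate 2, so it fell outside the top 3421 of each. Another, with a signal of 51.7, lay 256 bp downstream of the same TSS. Those of signal 63.1, 37.8 and 73.4 lay upstream of dap and nearest to the TSS of lncRNA:CR44292, at 133, 68 and 851 bp. The nearest thresholded summit lay 123 kb upstream of dap, and 3.19% of all genes had none closer. Peaks were thus listed at the dap promoter below the threshold, in a stretch of the arm without thresholded peaks.

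The mitotic cyclins CycA and CycB held no thresholded summit in their windows. CycA, the cyclin needed for entry into mitosis, had 2 pooled summits, of signal 59.3 (rank 13708) and 33.9 (rank 27464). The stronger lay within 107 bp of the TSS of CG7264, a gene inside the window, and the weaker in an intron 850 bp downstream of the CycA TSS. Replicate 2 alone listed a peak at the CycA TSS, 138 bp from it, with a signal of 26.3 at rank 12383. CycB had 1 pooled summit, 8 bp upstream of its TSS, with a signal of 74.3 at rank 9948. Its ranks in the replicates, 9857 and 9791, were nearly equal. Of CycA and CycB, only CycB thus had a peak within 500 bp of an own TSS in the pooled list and in both replicate lists. Among all protein-coding genes, 49.9% had one in the pooled list, 49.9% in replicate 1 and 51.1% in replicate 2. The related cyclin gene CycB3, among the other cell cycle genes below, also had one in each of these lists and none in the thresholded list.

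A much stronger peak lay just beyond CycB, outside the window and described after its value was seen. It spans 22802783 to 22803119 on arm 2R. Its summit, at 22802964, lay 557 bp past the 3′ end of CycB and 784 bp past that of blw, which encodes a subunit of the mitochondrial ATP synthase. Both genes run towards it, so no annotated promoter of either lies there. Its signal was 1243 at rank 32, with 779 at rank 34 in replicate 1 and 466 at rank 37 in replicate 2. It exceeded each of the 7 thresholded peaks inside the windows of the 10 genes, whose signals ran from 151 to 349. A window that also took in 2 kb past each gene's end would count CycB as a 5th gene, with 26.6% of all genes.

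The String phosphatase gene stg, which activates Cdk1 by removing inhibitory phosphates, held 7 pooled summits and no thresholded one. The strongest, with a signal of 104 at rank 5919, lay in the 5′ UTR, 37 bp upstream of an alternative TSS. Replicate 1 gave it rank 5197 and replicate 2 rank 11328. In replicate 2 a peak nearest to the TSS of the neighbour CG45544 ranked higher, at 9825. The pooled summits of signal 64.6, 32.8, 35.6 and 36.7 were also nearest to that TSS, at 222, 19, 890 and 1172 bp. The summit of 64.6 was also 463 bp upstream of the first stg TSS. The thresholded summit nearest to the start of stg was intergenic, 19.0 kb upstream, with a signal of 167 at rank 2540, and 36.2% of all genes had none closer. The TSS nearest to that summit was that of lncRNA:CR45568, 2327 bp away. Regulatory DNA of stg is known to extend far upstream of the gene, beyond the window used here. Whether this summit belongs to it was not tested. The kinase polo, which acts in spindle assembly and mitotic exit, held no pooled summit. The list of each replicate held 1 peak near the starts of polo, and these peaks overlapped. Replicate 1 gave a signal of 37.3 (rank 14848), 165 bp upstream of the later TSS. Replicate 2 gave 14.6 (rank 29008), 58 bp upstream of the same TSS. The replicate 1 peak was at about that list's median of 37.1, and the replicate 2 peak was near the end of its list.

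Cdk1, the mitotic kinase, had the shortest window and 2 thresholded summits, both upstream of the gene. The first, at 10386480 in chr2L:10386285-10386674, had a signal of 260 at rank 1159. Replicate 1 gave 136 at rank 1600 and replicate 2 gave 132 at rank 693. It lay 218 bp upstream of Cdk1 and 182 bp upstream of mRpS7, a mitochondrial ribosomal protein gene transcribed the other way, in the gap between their starts. The second had a signal of 172 at rank 2419, with ranks 2704 and 2526. It was 1732 bp upstream of Cdk1 but only 111 bp upstream of da, which encodes a basic helix-loop-helix partner of proneural proteins. By nearest TSS neither summit belonged to Cdk1, although the first lay within 500 bp of its start. The stretch around the first is shown because it sits between divergent promoters. It is chr2L:10386330-10386629 on the minus strand, the strand of Cdk1, with the summit at base 150. Capitals mark the match of AATAT or ATATT.
Cdk1 and mRpS7: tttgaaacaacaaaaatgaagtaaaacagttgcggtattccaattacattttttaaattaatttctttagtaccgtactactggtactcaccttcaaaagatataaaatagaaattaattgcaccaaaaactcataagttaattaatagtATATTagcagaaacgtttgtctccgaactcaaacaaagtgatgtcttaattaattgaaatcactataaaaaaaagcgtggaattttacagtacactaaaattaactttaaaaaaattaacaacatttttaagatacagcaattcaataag

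**Figure D3:**
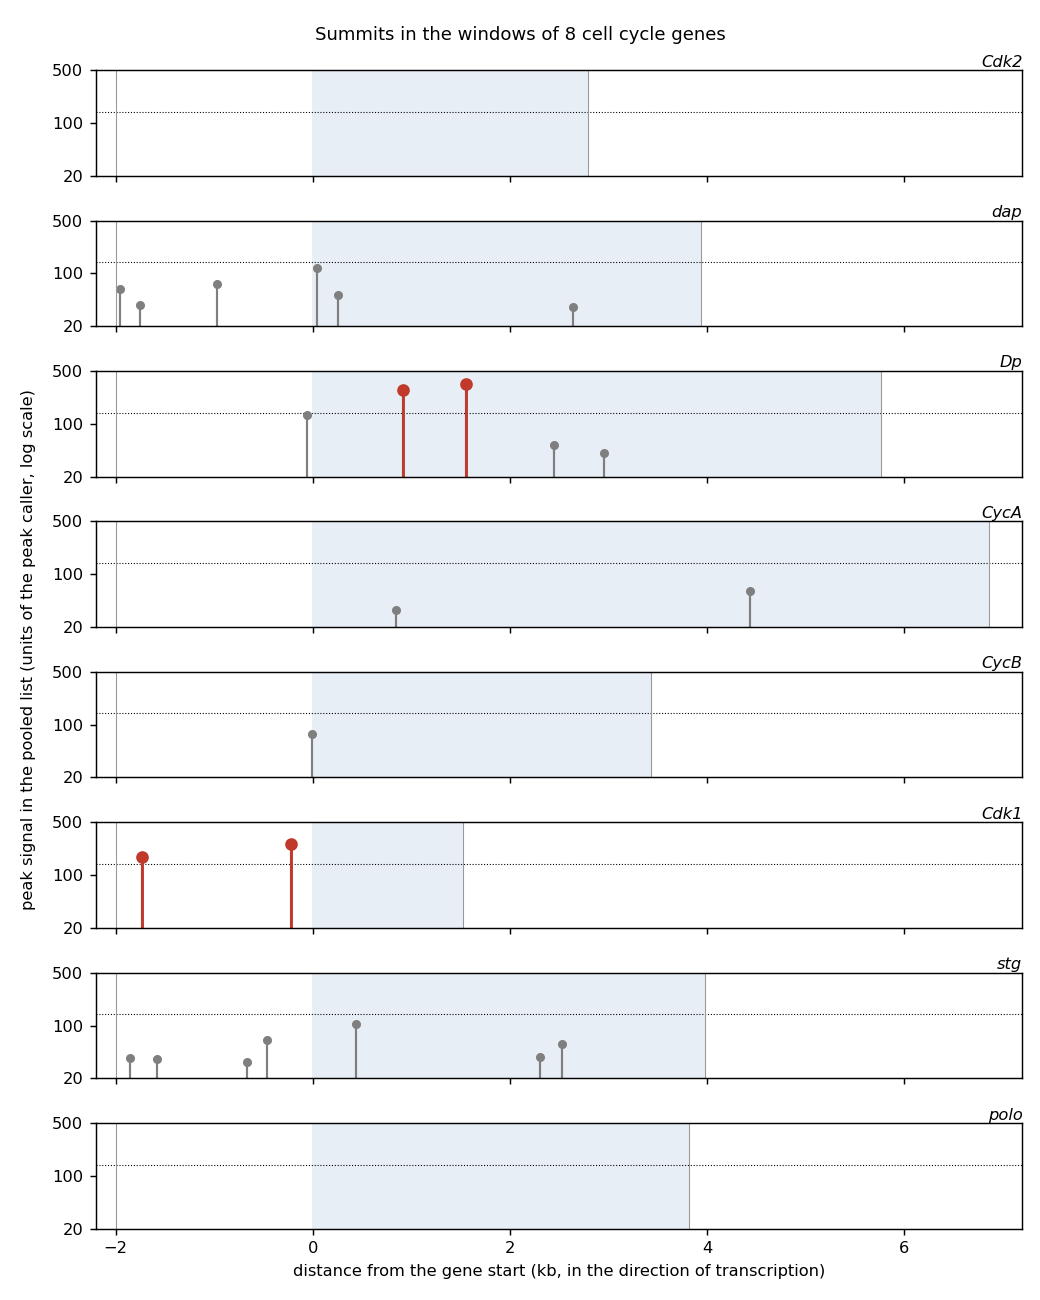
Signal of each pooled summit (vertical axis, units of the peak caller, log scale) against distance from the gene start (horizontal axis, kb) in the windows of the other 8 genes. Red points are in the thresholded list, shading is the gene, thin lines bound the window and the dotted line is the lowest thresholded signal, 141. Cdk1 and Dp hold 2 red points each, dap and stg come no higher than 119 and 104, and Cdk2 and polo are empty.

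Lowering the bar to the pooled list brought in CycA, CycB, stg and dap, for 8 of 10 genes (exact 95% interval 44.4 to 97.5), where 61.4% of all protein-coding genes had a pooled summit. Within 500 bp of an own TSS, 6 of 10 genes (CycB, Cdk1, stg, dap, E2f1 and Dp) had a pooled summit, against 49.9% of all genes. In the replicate 1 list 8 of 10 did, all but CycA and Cdk2, against 49.9%, and in the replicate 2 list 9 of 10 did, all but CycE, against 51.1%. The summits just inside and just outside the threshold belonged mostly to E2f1: inside at 151 and, for Cdk1, 172, and outside at 136, 134, 128, 127 and 119 for E2f1, 132 for Dp and 119 for dap. The E2f1 summit of 136, at rank 3666, lay 256 bp upstream of an own alternative TSS. Of the 66 distinct pooled summits in the 10 windows, 7 (10.6%) were thresholded, against 11.4% over the whole pooled list.

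All 7 thresholded summits overlapped a peak in both replicates, as did 99.7% of all 3421 in this list, which was filtered for agreement between replicates. The 7 summits were shifted by at most 61 bp in replicate 1 and 63 bp in replicate 2. Both replicates ranked 5 of the 7 among their top 3421, where 72.7% of the 3421 were, and the others were the 2 of E2f1. The CycE and Dp summits had nearly the same rank in each replicate. The first Cdk1 summit ranked higher in replicate 2, and both E2f1 summits ranked higher in replicate 1.

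**Figure D4:**
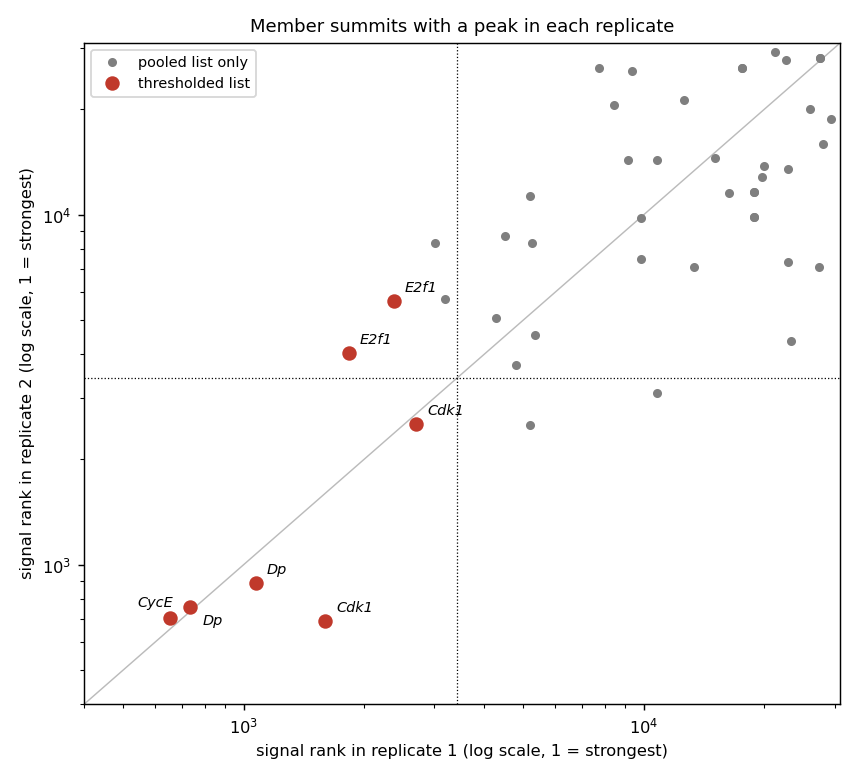
Signal rank in replicate 2 (vertical axis) against rank in replicate 1 (horizontal axis), both on log scales with 1 the strongest, for pooled summits in the 10 windows that overlap a peak in each replicate. Dotted lines mark rank 3421. Red points are in the thresholded list: those of CycE, Dp and Cdk1 lie within rank 3421 in both replicates, and those of E2f1 do so in replicate 1 only. Grey points are in the pooled list only.

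The 5 words searched, on both strands, were TATCGATA (the DRE, bound by Dref), GAGAG (GAGA factor), CAGGTAG (Zelda), TTTCCCGC (E2F) and the AT-rich AATAT, of the kind that vertebrate Sall proteins bind. Within 50 bp of the 7 summits, AATAT was present at 3, those of CycE and both of Cdk1, against 52% of all thresholded summits. None of the 7 held any of the other 4 words. Over all thresholded summits the DRE stood at 0.965%, the GAGA factor word at 9.85%, the Zelda word at 0.468% and the E2F word at 0.322%. In the promoters of the 10 genes, from 250 bp upstream to 50 bp downstream of the gene's start, TATCGATA was present at CycA and Cdk2, where 9.36% of all promoters hold it. GAGAG was present at CycE and dap (29.7% of all promoters) and AATAT at 6 of 10 (72%). The Zelda and E2F words were at none (1.64% and 1.43% of all promoters). In 300 bp around all thresholded summits, a length close to the stretches printed above, 79.4% held AATAT, with a median of 2 matches, beside 7 in the CycE stretch. Median GC content there was 37%, against 21% in the CycE stretch, 25.3% in that between Cdk1 and mRpS7 and 38.7% in the E2f1 stretch. In the 101 bp centred on each summit, the 7 had a median GC content of 34.7% (16.8 to 44.6), beside 32.7% for all thresholded summits. As a set the 7 were therefore not more AT-rich than the list.

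Of 70 other genes of the cell cycle, all matched by symbol or synonym, 23 (32.9%, exact 95% interval 22.1 to 45.1) had a thresholded summit in the window and 47 did not, beside 21.4% of all protein-coding genes. By window length these were 10 of 46 genes under 5 kb (13.9% of all such genes), 11 of 22 from 5 to 20 kb (29.4%) and 2 of 2 of 20 kb or more (48.3%). An own TSS lay within 500 bp of one for 16 (22.9%, interval 13.7 to 34.4), beside 13.5% of all genes. These differences were not tested. The median signal at those starts was 204, beside 206 for all thresholded peaks. The strongest was 89 bp upstream of Cdc16, a subunit of the anaphase-promoting complex, with a signal of 431 at rank 441. Next among genes whose own TSS was the nearest stood RnrS, the small subunit of ribonucleotide reductase, at 338, Cdc7, a kinase that fires replication origins, at 242, and trbl, which promotes the breakdown of String, at 225. Others lay close to a neighbour's start: Rbf2, a retinoblastoma relative, at 306 with CG32856 nearest, and mei-41, the fly ATR kinase, at 294 with TH1 nearest. The peak at Dref (394) was nearest to RpL13, and plu, an activator of mitotic cyclin translation in the egg, shared with PCNA a peak of 331 nearest to RpS18. Away from own starts, grp, the fly Chk1 kinase, had a summit of 350 nearest to CG31807, trbl had one of 317 in the gene, 3129 bp downstream of an own TSS, and E2f2, a repressive E2F, one of 205 nearest to Coq3.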

How the data were processed

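ChIP-seq peak lists came from 2 biological replicates of 1 group. According to the deposited descriptions, peaks were called by the authors from either replicate and from the pool, against a control not analysed here. The authors derived the thresholded list by the irreproducible discovery rate, a filter on the consistency of ranks between replicates. Which aligner, caller and threshold they used is not given in the sources used here. Signal, as deposited, is the caller's strength per peak. The deposited −log10 q-value has a ceiling in every list and was not used to rank peaks. A deposited peak position and summit offset gave each summit, and coordinates are those of dm6.

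Genes and TSSs came from Ensembl release 115 (FlyBase 6.54), on 6 arms, and sequence from the RefSeq copy of Release 6 of the genome, the assembly dm6 names. A window ran from 2 kb upstream of a gene to its end, and a summit was at a TSS within 500 bp of the start of any transcript. A replicate peak matched with an overlap of at least 1 bp. Words were searched within 50 bp of summits. The sequence of 1 summit is not reported here. The genes named are all 10, the owner of the TSS closest to each of their thresholded summits, and, of the 70, up to 8 with the strongest peak at an own TSS and up to 4 with the strongest elsewhere. The genes, lists and words were chosen with earlier results of these data known. With 1 group there was no test. Intervals are exact Clopper-Pearson 95% intervals for counting error only, and neighbouring genes share summits. Read totals are not given, so precision per peak is unknown.

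Alternatives were other windows, TSS distances and overlaps, the stronger peaks, the nearest TSS and single replicates. The scripts were checked on simulated data. Tools were matplotlib 3.10.9, pandas 2.3.3, numpy 2.4.6 and scipy 1.17.1, under Python 3.11.15.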

Additional observations from a re-analysis of the deposited data

How the results depend on the processing

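The 4 genes with a thresholded summit stayed the same with windows reaching 1 kb or 5 kb upstream, with peak overlap by 1 bp in place of the summit, and with the 3421 strongest peaks of either replicate alone. The gene body alone kept CycE, Dp and E2f1, as did the nearest TSS alone, and the 1710 strongest thresholded peaks kept Cdk1, CycE and Dp. Each of these settings left 4 of the 7 summits, and left 8, 13 and 10 of the 23 other cell cycle genes, in that order. The share of all genes was 19.1% with 1 kb upstream, 28.2% with 5 kb, 10.2% in the gene body, 12.5% with the 1710 strongest peaks, 22.2% by overlap, 13.4% by nearest TSS and 26.6% with 2 kb past the gene's end, the last chosen after seeing the data. Taking the first TSS alone left 1 gene (Cdk1) with a thresholded summit at its start in place of 2, since Dp qualified through an alternative TSS, and 1000 bp in place of 500 bp gave 3. With a single replicate's 3421 strongest peaks, summits in the windows numbered 7 to 9, genes with one at an own TSS 2 to 3, other cell cycle genes 18 to 20, and the share of all genes 21.2% to 21.3%. With replicate 2 alone, both thresholded E2f1 summits dropped out, at ranks 4021 and 5670, and other E2f1 summits entered. The full lists of single replicates put a summit in 9 to 10 of the 10 windows. No paired analysis was possible because both replicates belong to 1 group. Depth is unknown, so the absence of Cdk2 and polo from the thresholded and pooled lists says only that no peak there passed those cut-offs.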
